A study of Mus musculus with 18 samples.

Results

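The binding of C/EBPα 24 h after induction (hpi) was compared with its binding at 48 hpi. The latter was the last time profiled in the conversion of pre-B cells into macrophage-like cells (induced macrophages, iMΦ). The regions compared were the 200-bp bins of mouse chromosomes 1 to 19 (build mm9) that held 8 or more reads in either ChIP-seq library, after 1 read per position and strand was kept, the 5′ end of each read was moved 75 bp inward and the library at 48 hpi was thinned to the depth of the other. They numbered 20934 of 12361722 bins, and the 2 libraries were 2 of 18 that were analysed. The other libraries profiled C/EBPα at earlier times (8 libraries in all), C/EBPβ (5) and PU.1 (5). All came from C10 cells, a clone of the HAFTL pre-B cell line with a fusion of C/EBPα to the estrogen receptor that β-Est moves into the nucleus. The cells of both time points had received β-Est together with IL-3 and CSF-1. As each time had 1 library, time and library preparation cannot be told apart. As C10 is 1 clone and the fusion is a transgene, the libraries describe this line. RNA was not analysed here, so the cell type labels were not checked against marker genes.

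C/EBPα is a basic leucine zipper factor that directs the granulocyte and macrophage fates, and it can turn B-lineage cells into macrophages when expressed in them. C/EBPβ is a close relative that binds the same consensus, whereas PU.1 is an Ets factor present at lower levels in B-lineage cells and at high levels in macrophages. AP-1 dimers of Fos and Jun proteins act at many macrophage enhancers, and EBF1 is a regulator that B-lineage cells need.

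There was 1 library per time point, with no replicate and no input library. Differences between the libraries were therefore described by their size, without a test. The 95% intervals given for ratios (exact Clopper-Pearson) and read levels (exact Poisson) cover counting error only. Sites named for the largest or smallest ratios were picked by the same reads, which favours ratios far from 1. Their intervals make no allowance for this choice and are no test against 1. The intervals for shares of sites or bins (exact Clopper-Pearson) treat each site or bin as an independent draw, which neighbouring bins are not. The library at 24 hpi held 7586408 reads and that at 48 hpi 7956987, which were thinned to 7586408. A bin was called higher at one time when it held at least 2 times the reads of the other time. Touching bins were joined into 15168 sites, of which 10683 (70.4%) were 1 bin, and the 3677 sites with 40 or more reads in both libraries together are called strong sites. Sites are named after the nearest TSS of a protein-coding gene (GENCODE vM1), which does not show that the gene is their target.

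The sequences at strong sites with large differences are shown first, because the shares of strong sites with consensus letters, given below, differed with the direction of the change. Each is 200 bp of the plus strand of mm9 around the middle of the reads of both libraries, for sites outside exons. Capitals mark C/EBP (TTGCNNAA), AP-1 (TGACTCA) and EBF1 (TCCCNNGGG) letters on either strand. The first 4 were the sites with the largest excess at 48 hpi, and 3 of them held AP-1 letters.
Site nearest Gja10, chr4:32657054-32657253: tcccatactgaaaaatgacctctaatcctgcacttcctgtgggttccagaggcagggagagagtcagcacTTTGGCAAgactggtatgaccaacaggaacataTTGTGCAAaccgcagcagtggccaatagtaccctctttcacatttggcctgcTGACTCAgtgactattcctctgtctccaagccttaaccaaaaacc
Site nearest Pdik1l, chr4:133844824-133845023: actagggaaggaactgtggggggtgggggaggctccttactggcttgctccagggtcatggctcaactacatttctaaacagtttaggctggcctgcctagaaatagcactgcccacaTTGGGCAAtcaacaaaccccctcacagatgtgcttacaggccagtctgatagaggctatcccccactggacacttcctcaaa
Site nearest Thbs1, chr2:117851626-117851825: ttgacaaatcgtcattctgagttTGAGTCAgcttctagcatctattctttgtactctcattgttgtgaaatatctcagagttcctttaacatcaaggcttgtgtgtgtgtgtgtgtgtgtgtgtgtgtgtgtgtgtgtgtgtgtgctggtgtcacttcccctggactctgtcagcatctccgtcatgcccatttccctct
Site nearest Vps13d, chr4:144545898-144546097: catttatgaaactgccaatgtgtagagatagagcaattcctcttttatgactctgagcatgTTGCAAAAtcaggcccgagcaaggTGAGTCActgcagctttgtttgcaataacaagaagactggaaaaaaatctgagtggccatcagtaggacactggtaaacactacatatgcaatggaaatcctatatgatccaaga
The next 3 had the largest excess at 24 hpi, and none of these windows held AP-1 or EBF1 letters.
Site nearest Aipl1, chr11:71757118-71757317: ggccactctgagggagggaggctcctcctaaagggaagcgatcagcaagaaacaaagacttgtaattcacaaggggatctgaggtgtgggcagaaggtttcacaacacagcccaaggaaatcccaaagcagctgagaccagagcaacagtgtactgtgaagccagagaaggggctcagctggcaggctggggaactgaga
Site nearest Ccr4, chr9:114396767-114396966: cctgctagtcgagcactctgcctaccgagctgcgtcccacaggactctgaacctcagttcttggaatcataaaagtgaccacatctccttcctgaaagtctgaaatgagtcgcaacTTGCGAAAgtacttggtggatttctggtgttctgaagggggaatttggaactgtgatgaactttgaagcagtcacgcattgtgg
Site nearest Sorcs2, chr5:36715930-36716129: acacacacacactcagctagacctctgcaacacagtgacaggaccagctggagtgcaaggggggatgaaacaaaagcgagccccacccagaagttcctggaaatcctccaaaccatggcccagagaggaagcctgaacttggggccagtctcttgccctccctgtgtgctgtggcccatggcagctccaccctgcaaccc
The last 3 came from the sites with a large excess at 24 hpi that held EBF1 letters. Being chosen for these letters, they do not show how often such sites hold them. The site nearest Camk4, with a larger excess than the last 2, is not shown. After their first T, the letters searched for EBF1 equal their own reverse complement, so matches on the strands can overlap and were counted as places. In the window nearest Tbc1d9 they occurred at 3 places of a tandem repeat.
Site nearest Agtpbp1, chr13:59329718-59329917: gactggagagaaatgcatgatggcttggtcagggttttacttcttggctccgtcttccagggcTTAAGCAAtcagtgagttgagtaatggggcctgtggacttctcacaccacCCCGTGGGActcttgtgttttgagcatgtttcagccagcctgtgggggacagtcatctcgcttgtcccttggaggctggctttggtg
Site nearest 4731417B20Rik, chr5:137081249-137081448: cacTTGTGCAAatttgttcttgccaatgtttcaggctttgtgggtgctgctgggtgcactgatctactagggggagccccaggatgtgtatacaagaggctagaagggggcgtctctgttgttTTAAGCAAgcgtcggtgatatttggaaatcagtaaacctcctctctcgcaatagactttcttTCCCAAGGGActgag
Site nearest Tbc1d9, chr8:85634221-85634420: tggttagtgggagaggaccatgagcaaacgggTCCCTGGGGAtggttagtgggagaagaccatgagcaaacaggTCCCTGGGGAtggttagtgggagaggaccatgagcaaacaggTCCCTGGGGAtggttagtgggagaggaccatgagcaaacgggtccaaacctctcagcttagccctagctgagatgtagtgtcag

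C/EBPα reads were fewer at 48 than at 24 hpi over the compared bins. The bins took 295382 reads (3.99% of the library on these chromosomes) at 24 hpi and 253614 (3.43%) at 48 hpi, a log2 ratio of -0.22 between the shares, while 7111111 and 7145301 reads lay outside them. In bulk chromatin, binding in fewer cells and less binding per cell cannot be told apart. Of 16674 bins with 8 or more reads at 24 hpi, 8986 (53.9%) also had them at 48 hpi, and these were 67.8% of the 13246 bins with 8 or more at 48 hpi. The median of log2((reads at 48 hpi + 1)/(reads at 24 hpi + 1)) was -0.29, with quartiles of -0.92 and 0.36. At least 2-fold more reads were found at 48 hpi in 2739 bins (13.1%) and at 24 hpi in 6006 (28.7%), and 12189 (58.2%) were in neither group. Scaling the deeper library in place of thinning it gave 1749 and 5652. By site, the shares were 13.7% (2084) and 29.1% (4421).

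**Figure D1:**
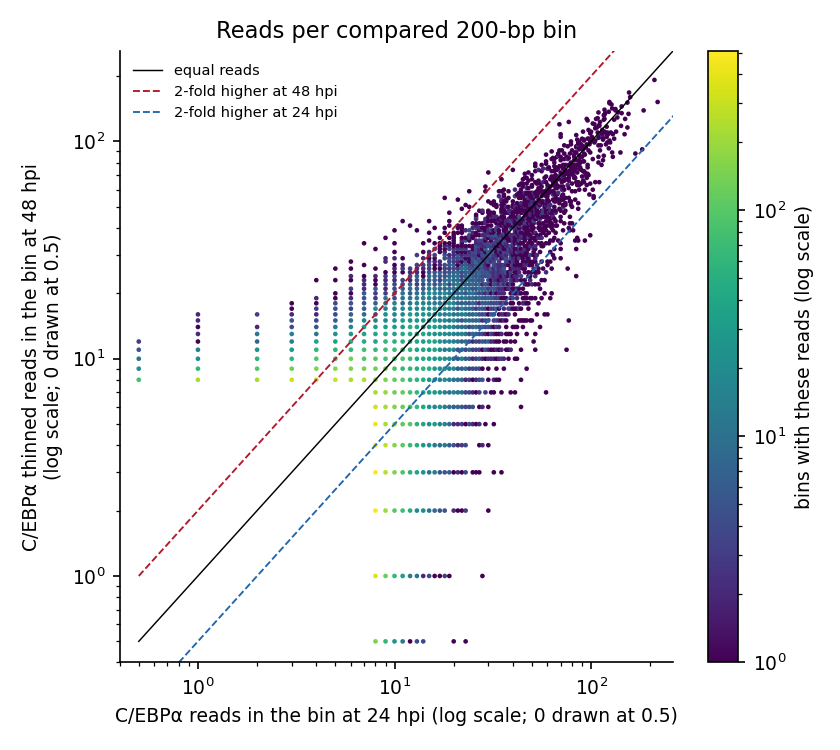
C/EBPα reads in each of the 20934 compared bins at 24 hpi (horizontal, log scale) and at 48 hpi after thinning (vertical, log scale), coloured by the number of bins with these reads. More bins lie beyond the dashed line of 2-fold higher at 24 hpi (6006) than beyond that of 2-fold higher at 48 hpi (2739), and the bins with the most reads lie near the line of equal reads.

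Many of these calls rested on few reads. The library with more reads had exactly 8 in 5034 bins (24.0%), and a further 10086 bins, in which it had exactly 7, stayed below the limit. In bins with 8 to 11 reads, 18.3% were called higher at 48 hpi and 34.9% at 24 hpi. The shares were 6.33% and 22.1% at 16 to 23 reads, and 0.253% and 4.55% in the 396 bins with 64 or more. The excess of calls toward 24 hpi was thus seen in each of the 7 read classes, while the share called in either direction became smaller from each class to the next.

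**Figure D2:**
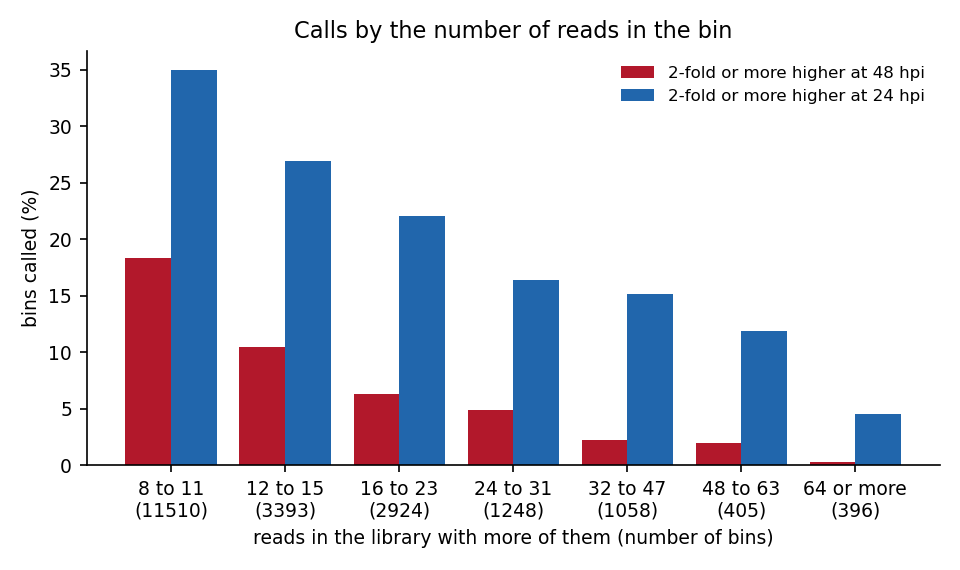
Share of bins (in %) called at least 2-fold higher at 48 hpi (red) and at 24 hpi (blue), by the reads in the library with more of them; the number of bins is under each class. The blue bar is the taller one in all 7 classes, from 34.9% against 18.3% to 4.55% against 0.253%.

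Among strong sites, where counting error weighs less, 69 of 3677 (1.88%) were called higher at 48 hpi and 393 (10.7%) at 24 hpi. Their median log2 ratio was -0.17, and 2273 had more reads at 24 hpi against 1299 at 48 hpi. The sites ranged from -3.17 to 1.91. The share called higher at 24 hpi was 5.30% for the 491 strong sites within 1 kb of a TSS, 11.3% at 1 to 10 kb, 11.7% at 10 to 50 kb and 11.4% beyond 50 kb. The share called higher at 48 hpi lay between 1.63% and 2.09% in these classes.

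The strong sites higher at 24 hpi and those higher at 48 hpi had different C/EBPα levels in the libraries before 24 hpi, which the calls did not use. Reads are given per 10000000 reads of the library and as a mean per site. At the 393 sites higher at 24 hpi, C/EBPα went from 9.65 at 0 hpi to 72.9 at 30 min, 92.4 at 3 hpi and 91.8 at 12 hpi, before the 64.1 and 25.4 of 24 and 48 hpi. At the 69 sites higher at 48 hpi it went from 5.41 at 0 hpi to 17.1 at 30 min, 28.3 at 3 hpi and 27.7 at 12 hpi, with 21.8 and 51.2 at 24 and 48 hpi. The 3215 remaining strong sites had 15.8, 58.4, 74.2 and 83.0 at the same early times, then 67.1 and 62.3. Before 24 hpi, the sites higher at 48 hpi thus had the lowest means of the 3 groups at every time measured. They were chosen for a low level at 24 hpi, however, and no comparison at matched 24 hpi level was made. As a description that includes the 2 libraries of the calls, the 48 hpi library gave the highest level of the 8 C/EBPα libraries at 48 of these 69 sites (69.6%), and the 3 hpi library at 12. Of the 393 sites higher at 24 hpi, 66 (16.8%) had their highest level at 24 hpi, against 119 at 12 hpi, 114 at 3 hpi and 82 at 30 min. By the choice of the groups, 0 sites of the first were highest at 24 hpi and 0 of the second at 48 hpi, so these tallies are no support for the calls. Libraries at 10, 30 and 60 min were read on another sequencer with longer reads, so levels across that border are less comparable.

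**Figure D3:**
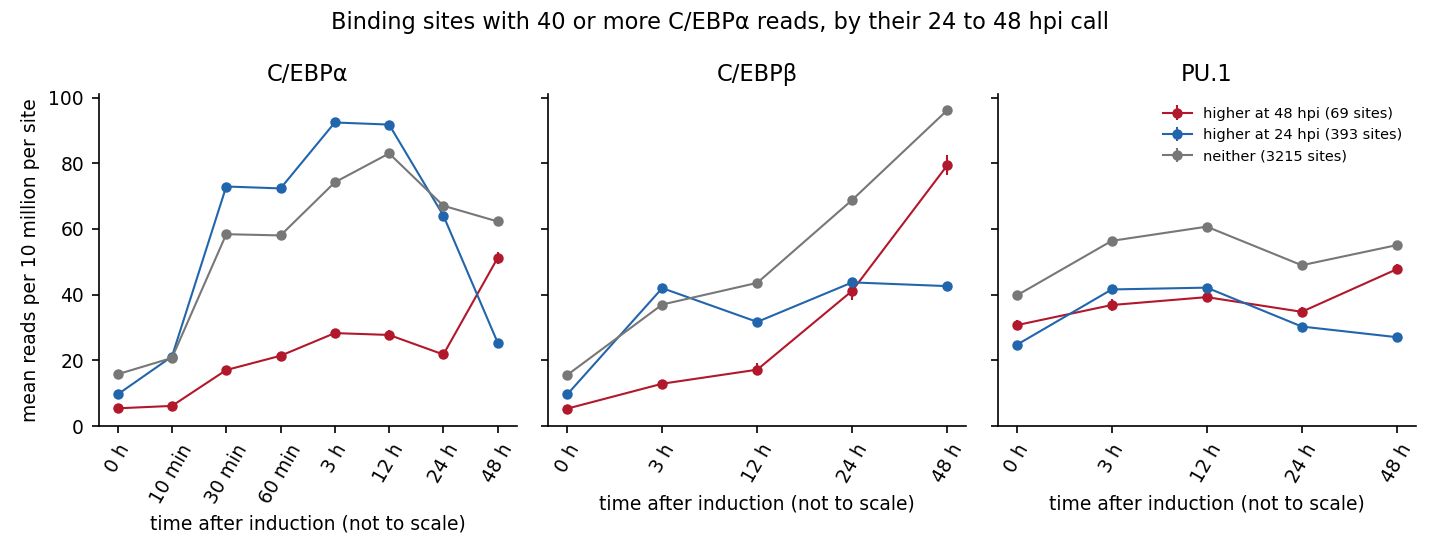
Mean reads per 10000000 reads per strong site (vertical) at each time after induction (horizontal, not to scale), with a panel for each factor, in sites called higher at 48 hpi (red, 69), higher at 24 hpi (blue, 393) and neither (grey, 3215); bars are exact 95% Poisson intervals, mostly smaller than the points. C/EBPβ at the red sites goes from 41.2 to 79.4 between 24 and 48 hpi and at the blue sites from 43.7 to 42.6.

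C/EBPβ, measured in other libraries, differed between the same 2 groups. At the sites higher at 48 hpi its mean was 5.31 at 0 hpi, 12.9 at 3 hpi, 17.2 at 12 hpi, 41.2 at 24 hpi and 79.4 at 48 hpi. At those higher at 24 hpi the means were 9.63, 42.0, 31.7, 43.7 and 42.6. The log2 ratio of summed C/EBPβ reads at 48 over 24 hpi was 0.95 (0.84 to 1.06) in the first group, with more reads per 10000000 reads at 48 hpi in 65 of 69 sites, and -0.038 (-0.087 to 0.012) in the second, with more in 186 of 393. The remaining strong sites had 0.48 (0.47 to 0.49), with more at 48 hpi in 2673 of 3215. C/EBPβ thus had more reads at 48 hpi over all compared bins (a median log2 ratio of 0.44), but not in sum at the strong sites where C/EBPα had at least 2-fold fewer. Over all 6006 bins higher at 24 hpi, in contrast, the log2 ratio of summed C/EBPβ reads was 0.21 (0.19 to 0.24). C/EBPβ was higher at 48 hpi in 55.4% of these bins. Over all 2739 bins higher at 48 hpi the ratio was 0.80 (0.77 to 0.84), with more in 68.3%, beside 67.2% of all compared bins.

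PU.1 differed in the same order and by less. Its log2 ratio of sums was 0.46 (0.38 to 0.53) at the sites higher at 48 hpi, with more reads at 48 hpi in 57 of 69, and -0.16 (-0.20 to -0.13) at those higher at 24 hpi, with more in 159 of 393. The remaining strong sites had 0.17, and the median over all compared bins was 0. Over all bins higher at 48 hpi the PU.1 log2 ratio of sums was only 0.16 (0.14 to 0.18), with more at 48 hpi in 51.4%. Over all bins higher at 24 hpi it was -0.16 (-0.17 to -0.15), with more at 48 hpi in 40.4%. The share over all compared bins was 49.3%. Across the 3677 strong sites, the C/EBPα log2 ratio had a Pearson r of 0.35 with that of C/EBPβ and 0.24 with that of PU.1, which describes sites that share sequence, base composition and the same cells at each time. PU.1 reads before induction were more common where C/EBPα changed least: 31.4% of bins in neither group had PU.1 at 0 hpi at the level of the 8-read limit, against 22.2% of those higher at 24 hpi and 18.2% of those higher at 48 hpi. The bins with PU.1 at 0 hpi also held more C/EBPα reads, with a median of 11 at 24 hpi against 9. C/EBPα itself reached that level at 0 hpi in 13.0% of bins in neither group. The shares were 3.68% of those higher at 24 hpi and 4.16% of those higher at 48 hpi. The parts of read number and of C/EBPα reads before induction in the PU.1 difference were not tested.

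The shares of sites with consensus letters differed between the groups. AP-1 letters were in 33.3% (22.4% to 45.7%) of strong sites higher at 48 hpi, 9.92% (7.15% to 13.3%) of those higher at 24 hpi and 17.3% (16% to 18.6%) of the others. EBF1 letters had the other order, with 7.25% (2.39% to 16.1%), 19.6% (15.8% to 23.9%) and 8.96% (7.99% to 10.0%). For the C/EBP letters the shares were 60.9% (48.4% to 72.4%), 48.1% (43.1% to 53.2%) and 50.8% (49.1% to 52.6%), so that their intervals overlapped. Over all compared bins the C/EBP shares were 17.2% and 18.2% in bins higher at 48 and at 24 hpi and 26.4% in the others, and among bins with 16 or more reads 43.0% (37.1% to 49.0%), 29.4% (26.7% to 32.2%) and 36.1% (34.7% to 37.5%). At the strong sites the shares of PU.1 (GAGGAAGT) and RUNX (TGTGGTT) letters lay between 10.9% and 14.2% and between 16.6% and 18.8%. Over all compared bins, AP-1 letters were in 11.3% of bins higher at 48 hpi, 5.04% of those higher at 24 hpi and 9.25% of the others, and EBF1 letters in 3.87%, 9.24% and 4.63%. In all bins of chromosomes 1 to 19 without unknown bases, 3.14% held AP-1, 1.87% EBF1 and 9.28% C/EBP letters. A match is a match of letters and does not show that the factor was bound.

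**Figure D4:**
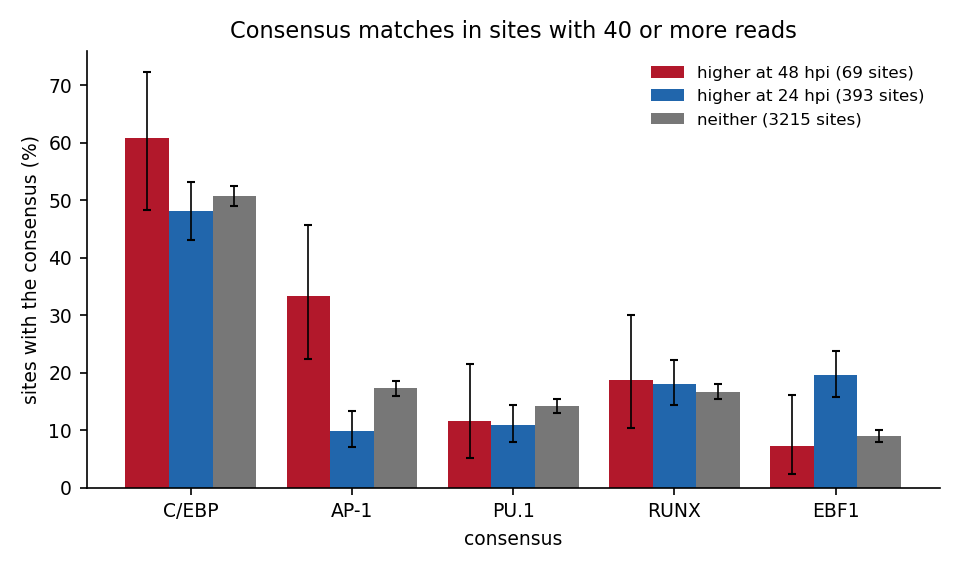
Share of strong sites (in %) with consensus letters for 5 factors, for sites higher at 48 hpi (red, 69), higher at 24 hpi (blue, 393) and neither (grey, 3215), with exact 95% Clopper-Pearson intervals as bars. AP-1 is at 33.3% in the red and 9.92% in the blue group, and EBF1 at 7.25% and 19.6%.

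Base composition moved with the calls as well. The share of bins called higher at 24 hpi was 16% below 40% GC, 26.9% at 45% to 50% and 35.9% at 55% to 60%, but 32.5% at 60% and more, and the median log2 ratio went from 0 to -0.50 between the lowest class and 55% to 60% and was -0.32 in the highest. The share higher at 48 hpi lay between 11.3% and 17.3% in the 6 GC classes. The EBF1 letters are rich in G and C, so EBF1, AP-1 and C/EBP letters were compared within GC classes, over bins of all read numbers. The EBF1 share was larger in bins higher at 24 hpi than in bins of neither group in 6 of 6 classes, for example 7.21% (5.89% to 8.71%) against 3.08% (2.50% to 3.75%) at 45% to 50% GC. AP-1 letters were more frequent in bins higher at 48 hpi than in those higher at 24 hpi in 5 of 6 classes, with 15.6% (12.7% to 18.8%) against 5.22% (4.10% to 6.54%) at 45% to 50%; in the class of 60% and more the shares were 2.74% and 3.00%. The C/EBP share in bins higher at 48 hpi was above that in bins higher at 24 hpi in 0 of 6 classes. It was above that in bins of neither group in 0 of 6 classes as well. The part of GC content in the calls themselves was not tested.

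Among the 10 strong sites with the largest excess at 48 hpi, reads went from 12 to 48 at chr4:32657001-32657400, in an intron of Bach2, a transcriptional repressor of B-lineage cells (nearest TSS Gja10). The ratio was 4 (2.09 to 8.27). At the same site C/EBPβ went from 22.4 to 88.7 and PU.1 from 13.2 to 40.1 per 10000000 reads, and C/EBPα had been at 9.88 at 3 hpi. An intergenic site at chr2:117851601-117851800, nearest Thbs1, which encodes the matrix glycoprotein thrombospondin 1, had 10 reads at 24 hpi and 39 at 48 hpi, a ratio of 3.90 (1.91 to 8.76). The site at chr11:70011801-70012200, 14.4 kb upstream of Slc16a11, a member of the monocarboxylate transporter family, had 18 and 61 reads, a ratio of 3.39 (1.98 to 6.09). A site in an intron of Ms4a6d, at chr19:11663601-11664000, had 13 and 39. The rest of the 10 lay nearest Pdik1l (8 and 32), Vps13d (9 and 34), Vmn2r83 (12 and 43), Wnt16 (11 and 38), Scin (12 and 41) and Socs6 (10 and 34). C/EBPβ and PU.1 were both higher at 48 than at 24 hpi at 10 of these 10 sites. Among all 69 strong sites higher at 48 hpi, C/EBPβ was higher in 65 and PU.1 in 57. Among strong sites in neither group the shares were 83.1% and 59.0%. PU.1 at the site nearest Scin, which encodes an actin-severing protein, was at 0.881 and 2.87 only, and in Ms4a6d at 18.5 and 19.1. Before induction C/EBPα was between 1.13 and 6.77 per 10000000 reads at the 10 sites, and 6 of them held AP-1 letters.

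At the 10 strong sites with the largest excess at 24 hpi, C/EBPα was at 16.2 to 271 per 10000000 reads at 3 hpi and 33.5 to 258 at 12 hpi, ranges that overlapped the 2.70 to 27.9 and 3.35 to 40.2 of the 10 sites above. Reads went from 44 to 4 at chr2:118355201-118355600, in an untranslated exon of Bmf, which encodes a pro-apoptotic member of the BCL2 family. The excess at 24 hpi was 11-fold (4 to 42.2). The site nearest Ccr4, a chemokine receptor gene, had 52 and 7 (7.43-fold, 3.36 to 19.4) at chr9:114396601-114397000, with 0 reads of all 3 factors at 0 hpi. Other sites of the 10 lay nearest Aipl1 (39 and 5), Sorcs2 (35 and 5), A730045E13Rik (52 and 8, in an intron of Zmat4), 1700112E06Rik (48 and 8), Dmrtc2 (37 and 6), Agtpbp1 (37 and 6) and Camk4 (42 and 7). C/EBPα was higher at 12 than at 24 hpi at 8 of the 10 sites, against 4 of the 10 with the largest excess at 48 hpi. Both sets were chosen by their 24 hpi reads, so these counts are no support for the calls. Strong sites in neither group also had a higher mean at 12 than at 24 hpi (83.0 against 67.1). At the 10 sites with the largest excess at 24 hpi, C/EBPβ was higher at 48 than at 24 hpi at 2, and so was PU.1. Among all 393 strong sites higher at 24 hpi the shares were 47.3% and 40.5%. EBF1 letters were in 3 of these 10 sites, and AP-1 letters in 0.

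Strong sites of 3 genes differed in opposite directions. Among 2376 genes with a strong site within 100 kb of their TSS, 63 had one higher at 48 hpi, 322 had one higher at 24 hpi and 3 had both, namely Bmf, Gnaq and Agtpbp1 (these 3 were picked out after their values were seen). A site higher at 24 hpi was found for 4.76% of the genes with a site higher at 48 hpi, against 13.6% of all 2376. These shares cannot be compared directly, because a site higher at 48 hpi cannot also be higher at 24 hpi. The 2376 genes had 3277 strong sites, so many of these genes had no other strong site that could be called. Whether the directions avoid each other within genes was not tested. Bmf had 13 reads at 24 hpi and 33 at 48 hpi at chr2:118373201-118373600, 6 bp from its TSS, against the 44 and 4 of the site 18 kb into the gene. At Gnaq, which encodes a G protein α subunit, a site 10.2 kb upstream went from 24 to 69 reads, and one 7.98 kb downstream of the TSS from 28 to 12. At Agtpbp1, which encodes an enzyme that shortens polyglutamate chains on tubulin, the site 46 bp from the TSS had 15 and 33 reads, while those 23.1 and 46.9 kb into the gene had 64 and 29, and 38 and 13. Lgmn, which encodes the lysosomal protease legumain, had 34 and 66 reads at 5.88 kb upstream (chr12:103683601-103684000) and 52 and 13 at 25.1 kb downstream of the TSS (chr12:103636801-103637200), the first just below the 2-fold limit.

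Sites were then grouped by 19 gene lists of 363 genes, over sites whose nearest TSS was that of a list gene and lay within 100 kb. Over all genes 13.7% of 13790 such sites were higher at 48 hpi and 29.4% at 24 hpi, with a median log2 ratio of -0.32. These values are the background against which each list is read, and no list was tested. The 4 lists with medians nearest 0 are given first. For Fc receptors and ITAM adaptors the median was 0.014, with 5 of 66 sites higher at 48 hpi and 13 at 24 hpi. For lysosomal proteins and proteases it was -0.021, with 12 and 16 of 86. For chemokines and their receptors it was 0, with 10 and 7 of 46 (21.7% and 15.2%), the list with more calls toward 48 than toward 24 hpi. For lipid handling it was -0.14, with 8 and 14 of 67.

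The other lists had medians from -0.74 to -0.23. Sites near B cell receptor and recombination genes had a median of -0.74, with 1 of 20 higher at 48 hpi and 7 at 24 hpi, and near B-lineage regulators of -0.50, with 3 and 11 of 29. Sites near PU.1 and Ets relatives were at -0.59 (4 and 13 of 36), those near the C/EBP family itself at -0.58 (1 and 10 of 25), and those near macrophage regulators at -0.52 (4 and 16 of 54). Sites near inflammatory cytokines were at -0.58 (3 and 16 of 47), and those near the phagocyte oxidase at -0.56 (0 and 7 of 20). Granule proteins had -0.42 (0 and 6 of 21), cytokine signalling feedback -0.36 (16 and 38 of 129), MHC class II -0.36 (1 and 1 of 4), Toll-like receptors and adaptors -0.34 (4 and 9 of 40), integrins and adhesion -0.32 (5 and 13 of 49), cell cycle -0.28 (6 and 10 of 38), cytokine and growth factor receptors -0.26 (9 and 23 of 76), and AP-1 and ATF genes -0.23 (7 and 9 of 45). The order changed with read number. Over strong sites alone the median was -0.26 for B cell receptor and recombination genes (4 sites), -0.48 for macrophage regulators (15) and -0.45 for B-lineage regulators (6). It was -0.44 for the oxidase (7), -0.20 for PU.1 and Ets relatives (11), -0.10 for cell cycle and -0.029 for integrins. For chemokines and receptors it was -0.13 (15 sites, of which 0 were called in either direction). For the C/EBP family it was -0.38 (8 sites, of which 0 were called in either direction). For inflammatory cytokines (17) and granule proteins (13) it was -0.36. The strong-site median over all genes was -0.17.

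**Figure D5:**
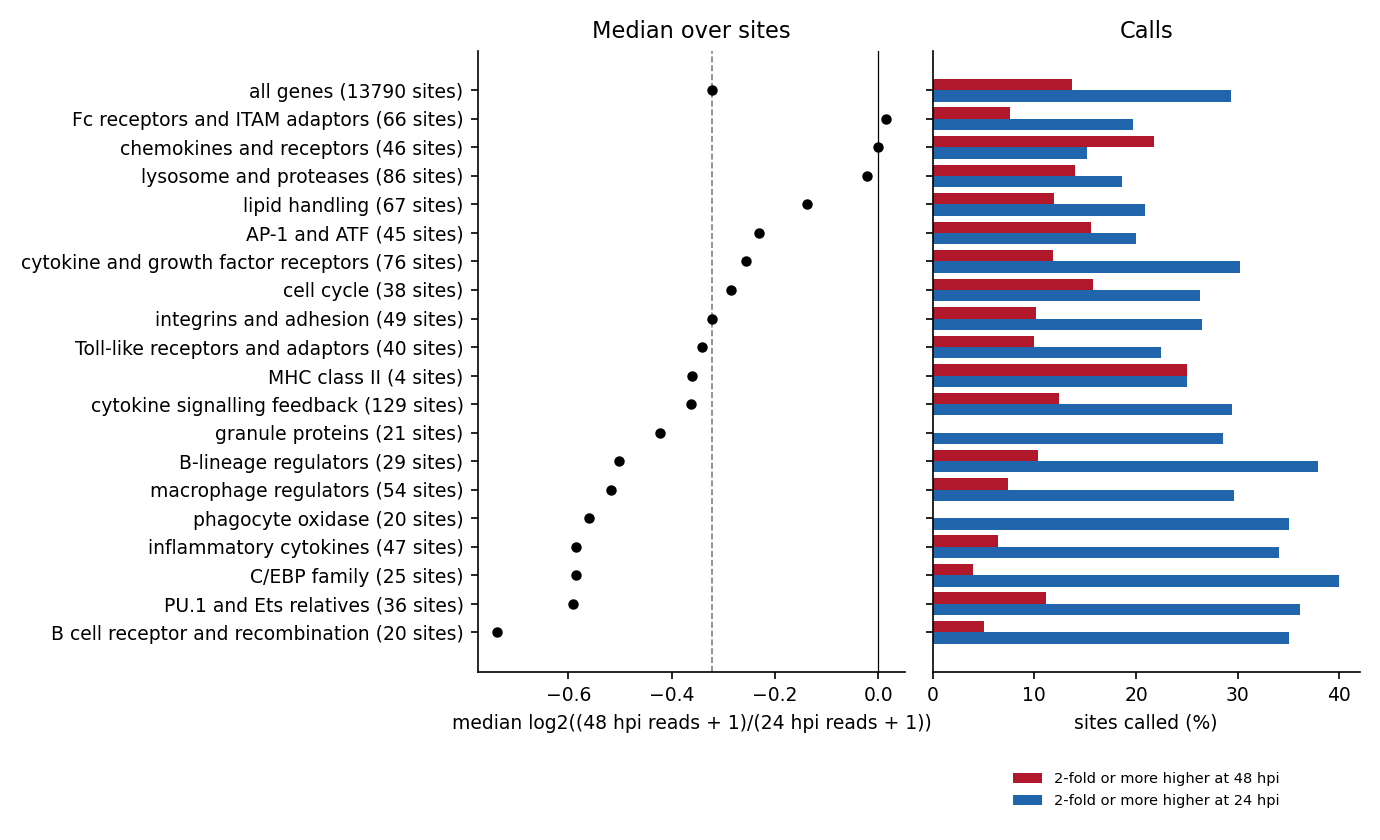
Left, median log2 ratio of reads at 48 over 24 hpi over the sites of each gene list (the number of sites is in parentheses; the dashed line is the median over all genes, the solid line 0); right, share of sites (in %) called at least 2-fold higher at 48 hpi (red) and at 24 hpi (blue). Fc receptors, chemokines and lysosomal genes lie near 0, and B cell receptor genes lie lowest over all their sites, at -0.74, though not over their strong sites alone (-0.26).

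The strong sites with the largest ratio of several lists are given next. Cd36, the scavenger receptor that takes up oxidized lipids, had 18 reads at 24 hpi and 41 at 48 hpi at chr5:17360401-17360800, a ratio of 2.28 (1.28 to 4.21), while C/EBPβ there went from 51.2 to 94.6 per 10000000 reads. Cdkn1a, which encodes the cell cycle inhibitor p21, had 14 and 31 at its promoter (chr17:29227601-29228000), with C/EBPβ at 3.20 and 3.94 per 10000000 reads. As the C/EBPβ libraries at 24 and 48 hpi held 3124877 and 5075832 reads, such low values rest on very few reads. Clec4e, an ITAM-coupled lectin receptor, had 16 and 31 at its promoter (1.94, 1.03 to 3.79), just below the 2-fold limit, with PU.1 at 67.8 and 129.

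Other lists also held strong sites that were higher at 24 hpi, and those with the smallest ratio of several lists are given. The numbers were 2 of 14 for Toll-like receptors and adaptors and 3 of 17 for inflammatory cytokines. For lipid handling they were 3 of 18 and for the phagocyte oxidase 1 of 7, beside the 10.7% of all strong sites. Tlr2, the receptor of bacterial lipoproteins, had 183 and 184 reads at 43.6 kb upstream, 26 and 47 at 3.61 kb upstream (1.81, 1.10 to 3.04), and 81 and 30 at 61.4 kb upstream, an excess at 24 hpi of 2.70-fold (1.76 to 4.25). The cytokine gene Osm had 75 and 24 in an intron (chr11:4137401-4138000), an excess of 3.12-fold (1.95 to 5.18). Scarb1, a receptor of high-density lipoprotein, had 34 and 8 in an intron (4.25-fold, 1.93 to 10.6), and C/EBPβ there went from 32 to 3.94. Hvcn1, the proton channel that supports the oxidase, had 38 and 13 in an intron (2.92-fold, 1.52 to 5.98).

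Of the strong sites near B cell receptor and recombination genes 1 of 4 was higher at 24 hpi, and near B-lineage regulators 2 of 6, beside the 10.7% of all strong sites. Igll1, a part of the surrogate light chain of the pre-B cell receptor, had 52 and 19 reads at 1.42 kb upstream (chr16:16865401-16865800), an excess at 24 hpi of 2.74-fold (1.59 to 4.90). C/EBPα at that site had been at 109 per 10000000 reads at 3 hpi and 97.1 at 12 hpi, and was at 68.5 and 25.1 at 24 and 48 hpi. Blnk, which encodes an adaptor of the B cell receptor, had 18 and 22 reads at the site with the largest ratio of that list. Myb, a regulator of immature blood cells, had 56 and 16 reads in an intron at chr10:20866201-20866600 (3.50-fold, 1.98 to 6.54), and 29 and 32 at another intronic site 4.49 kb from the TSS. Ets1 had 55 and 20 in an intron (2.75-fold, 1.62 to 4.84). It belongs to another list, PU.1 and Ets relatives, in which 1 of 11 strong sites was higher at 24 hpi. Ikzf1, which encodes Ikaros, had 96 and 80 in an intron, a ratio of 0.833 (0.612 to 1.13) whose interval includes 1. This site was named for having the most reads of its list, not for its ratio.

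The sites with the most reads of 3 regulator genes had less than 2-fold differences. Cebpb had 250 and 177 reads at chr2:167579401-167580200, 65.3 kb from its TSS, a ratio of 0.708 (0.581 to 0.862), while C/EBPβ at the same place went from 304 to 418 per 10000000 reads. Sfpi1, which encodes PU.1, had 223 and 203 at chr2:90923001-90923600 (0.910, 0.749 to 1.11), and Nfe2 had 232 and 198 near its TSS (0.853, 0.702 to 1.04). Among 34 genome windows that the study displays, the sites with the most reads were 30 different ones, of which 0 were higher at 48 hpi, 3 at 24 hpi and 27 in neither group, with a median log2 ratio of -0.22. Among all strong sites the shares called were 1.88% and 10.7% and the median was -0.17. Those higher at 24 hpi lay nearest Nfat5 (44 and 16), Tgfbr2 (46 and 20) and Cd40 (31 and 15). As the study chose these windows on its own samples, they are no independent sample of sites.

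The 5 sites with the most reads of all had high levels before induction. They covered 7 to 33 bins each, lay nearest Pgk2, Sfi1 (3 sites) and Gm10800, and had ratios of 48 over 24 hpi between 1.01 and 1.15. Their C/EBPα level was already 586 to 2500 per 10000000 reads at 0 hpi, and it was 512 to 1624 at 3 hpi, 574 to 4040 at 12 hpi and 659 to 3592 at 48 hpi. The levels of PU.1 and C/EBPβ were of the same order in all 10 of their libraries (419 to 4428). As all 3 factors had such levels at every time and there was no input library, these reads do not show C/EBPα binding. Leaving out the 2220 bins with 8 or more C/EBPα reads at 0 hpi at the same depth gave 13.9% higher at 48 hpi and 30.6% higher at 24 hpi.

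The interval from 24 to 48 hpi was set beside the 2 before it, with all libraries thinned to the 5970869 reads of the 12 hpi library. Between 3 and 12 hpi, 21.4% of 29224 bins were higher at the later and 38.9% at the earlier time. Between 12 and 24 hpi it was 8% and 37.9% of 20257 bins, and between 24 and 48 hpi 12.0% and 27.6% of 13943. The median log2 ratios were -0.44, -0.58 and -0.26. Neighbouring intervals share a library, and no difference between intervals was tested.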

How the data were processed

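The authors aligned the reads to mm9 without mismatches (ELAND or Bowtie, of which the submitters' processing notes name Bowtie; the aligner of each library and its version are not given in the sources used here), kept uniquely aligned and non-identical reads, and deposited other values than counts, namely the chromosome, start, end and strand of each read, without normalization. Counts were made here from these positions. Reads sharing position and strand were 0.0948% of the library at 24 hpi and 0.188% of that at 48 hpi, and 1 was kept. The move of 75 bp lay near the middle of the fragments (159 and 138 bp between the strands). Thinning used a fixed seed. Libraries other than this pair were counted in the same bins by reads moved to the middle of their own fragments, per 10000000 reads.

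Genes came from GENCODE vM1 on NCBIM37 (mm9), and sequences were read from that genome. Python 3.11.15 with numpy 2.4.6, pandas 2.3.3, scipy 1.17.1 and pysam 0.24.0 was used, and the counting and calling steps were tested on simulated data.

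Sites were named by rule: the 10 largest and 10 smallest ratios (pseudocount 1) among strong sites, the 5 with the most reads, for each gene list the site with the most reads and the strong sites with the largest and smallest ratio, and for each displayed window the site with the most reads. Some sites that the rule names are not reported here. The bins, lists and tests were chosen with earlier results of these data known. The alternatives tried were 16 reads, 3-fold, 500-bp bins, bins shifted by 100 bp, another seed, scaling in place of thinning, another move of the reads, all deposited reads, rescaling by background reads, joining bins across a gap of 1 bin and leaving out bins bound at 0 hpi.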

Additional observations from a re-analysis of the deposited data

How the results depend on the processing

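With 16 or more reads, 6031 bins were compared, of which 279 were higher at 48 hpi and 1075 at 24 hpi, with a median log2 ratio of -0.21, and the C/EBPβ and PU.1 medians were 0.46 and 0.099. With 500-bp bins, 71216 were compared, of which 14226 and 21855 were called, and the C/EBPβ and PU.1 medians were 0.26 and -0.23. Scaling in place of thinning gave 1749 bins higher at 48 hpi and a median of -0.38, as scaled counts are not whole and those at the limit of 8 reads or of 2-fold then fall below it. At 3-fold, 1273 and 3073 bins were called. Rescaling by background reads gave C/EBPβ and PU.1 medians of 0.47 and 0.0010. More bins were higher at 24 than at 48 hpi under each of these settings.

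The calls of strong sites were examined under 7 alternatives chosen after seeing the data, which gave 59 to 82 sites higher at 48 hpi and 334 to 426 higher at 24 hpi. The 10 largest and 10 smallest ratios kept their direction with another seed and without thinning (40 of 40 values). Both settings use the same reads at 24 hpi and nearly the same at 48 hpi. For ratios this extreme the result was thus all but fixed beforehand and is no support for them. No paired analysis was possible because each factor and time point has 1 library. At this depth a bin of 8 to 11 reads seldom fixes a 2-fold difference, and without replicates the spread between libraries of the same time point is unknown.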
